A study of Caenorhabditis elegans with 36 samples.

Results

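miR-85, miR-246, miR-1817, miR-5592 and miR-77 are C. elegans miRNA hairpins with strands among those that rose most from the late larva to the young adult. They were chosen by the size of this rise in the same libraries. All rows of these 5 hairpins were taken, which gave 9 mature strands of 437 in the table. They comprised miR-85-3p, miR-246-3p, miR-1817, miR-5592-3p, miR-77-3p and miR-77-5p, together with the opposite strands miR-85-5p, miR-246-5p and miR-5592-5p. All 9 strands passed the filter on low counts, which 241 strands passed in all. Because the hairpins were picked for their rise, the rise is described here without a test, while the comparison of strains and of the strands of a hairpin did not enter the choice.

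Small RNAs had been sequenced from synchronized worms at 25 °C, sampled hourly between 25 and 42 h after plating as first-stage larvae, which spans late L3 to young adulthood. One group was the wild-type strain N2 (WT) and the other the strain HW3527, which carries the ebax-1(tm2321) allele on chromosome IV. Both received no treatment, and each strain had 18 libraries, 1 per hour, of 2832088 to 5579822 counts in WT and 3720038 to 8060155 in the mutant. EBAX-1 is the worm counterpart of ZSWIM8, a factor in target-directed decay of miRNAs. The mutants develop about 3 h later than WT by the staging of the study, so the 15 WT libraries of 25 to 39 h were set against the mutant ones of 28 to 42 h. With 1 library per strain and hour, the effect of strain and that of culture or preparation cannot be told apart, and the mutated gene itself is not a miRNA and was not measured. In whole animals, more cells that express a miRNA and more of it per cell cannot be told apart.

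A miRNA hairpin is cut into a duplex of a 5p and a 3p strand, of which one, the guide, is usually loaded into an Argonaute protein while the other, the passenger, is discarded. Both strands are cut from the same precursor. Many worm miRNAs are switched on at set times, as lin-4 and let-7 are in the larval timing pathway. Reporters driven by the miR-85 promoter have been seen in the spermatheca or uterus, structures that form in the last larval stage, and a miR-246 reporter has been used as a marker of lifespan in adult worms.

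The hairpins lay at separate places in the genome. In the WBcel235 annotation, mir-85 was at II:8393553-8393658 on the plus strand, within an intron of the protein-coding gene F49E12.8 and opposite to the ncRNA F49E12.14, both on the minus strand. mir-77 was at II:12519268-12519367 on the plus strand and overlapped no other gene, the nearest protein-coding gene being the chemoreceptor-family gene srh-70 at 409 bases. mir-246 was at IV:10940134-10940230 on the plus strand, 200 bases from fic-1, an enzyme gene of the Fic family on the same strand. mir-1817 was at I:10869370-10869474 on the minus strand, 482 bases from Y37F4.6 on the same strand. miR-5592 came from 2 hairpins, mir-5592-1 at X:13759245-13759308 on the minus strand and mir-5592-2 at X:13759247-13759310 on the plus strand, which overlapped on opposite strands over 62 bases inside an intron of aakb-1, a gene for a regulatory subunit of AMP-activated kinase. The table has 1 row per arm of miR-5592, so its values cannot be assigned to either hairpin.

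The members rose from a minor to a sizeable share of the miRNA pool. In WT the 9 strands together took 0.228% of all counts at 25 h (95% Wilson interval 0.222 to 0.233) and 4.34% at 42 h (4.32 to 4.36). In the mutant they took 0.0931% (0.0905 to 0.0957) and 3.64% (3.63 to 3.66). These intervals cover counting error only. Reference miRNAs chosen for comparison moved in different ways over the same hours. Levels are given here as the deposited log2 level, the log2 of the read count scaled to the mean library total plus 8, on which 0 reads is a level of 3. On this scale miR-1-3p of muscle went from 18.47 to 17.96 in WT, and miR-60-3p of the intestine from 10.28 to 10.39. In WT let-7-5p went from 17.18 to 17.14, lin-4-5p from 11.41 to 10.99 and miR-124-3p of neurons from 8.70 to 7.53. By contrast, miR-35-3p rose from 10.85 to 13.93, a rise of 3.08 that exceeded the 2.34 of miR-77-3p. Over 40 to 42 h in WT the order was miR-85-3p at 16.82 ± 0.02 (SD, n = 3 hourly libraries), miR-246-3p at 15.22 ± 0.03, miR-77-3p at 14.63 ± 0.27 and miR-77-5p at 13.32 ± 0.06. Lower down came miR-5592-3p at 12.78 ± 0.14, miR-5592-5p at 11.48 ± 0.04, miR-1817 at 10.89 ± 0.08, miR-246-5p at 7.27 ± 0.14 and miR-85-5p at 3.71 ± 0.12. All neighbours in this order were apart by more than their SDs. In ebax-1(tm2321) the order was the same, but miR-77-3p at 13.53 ± 0.20 and miR-77-5p at 13.47 ± 0.05 did not differ beyond their spread.

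**Figure D1:**
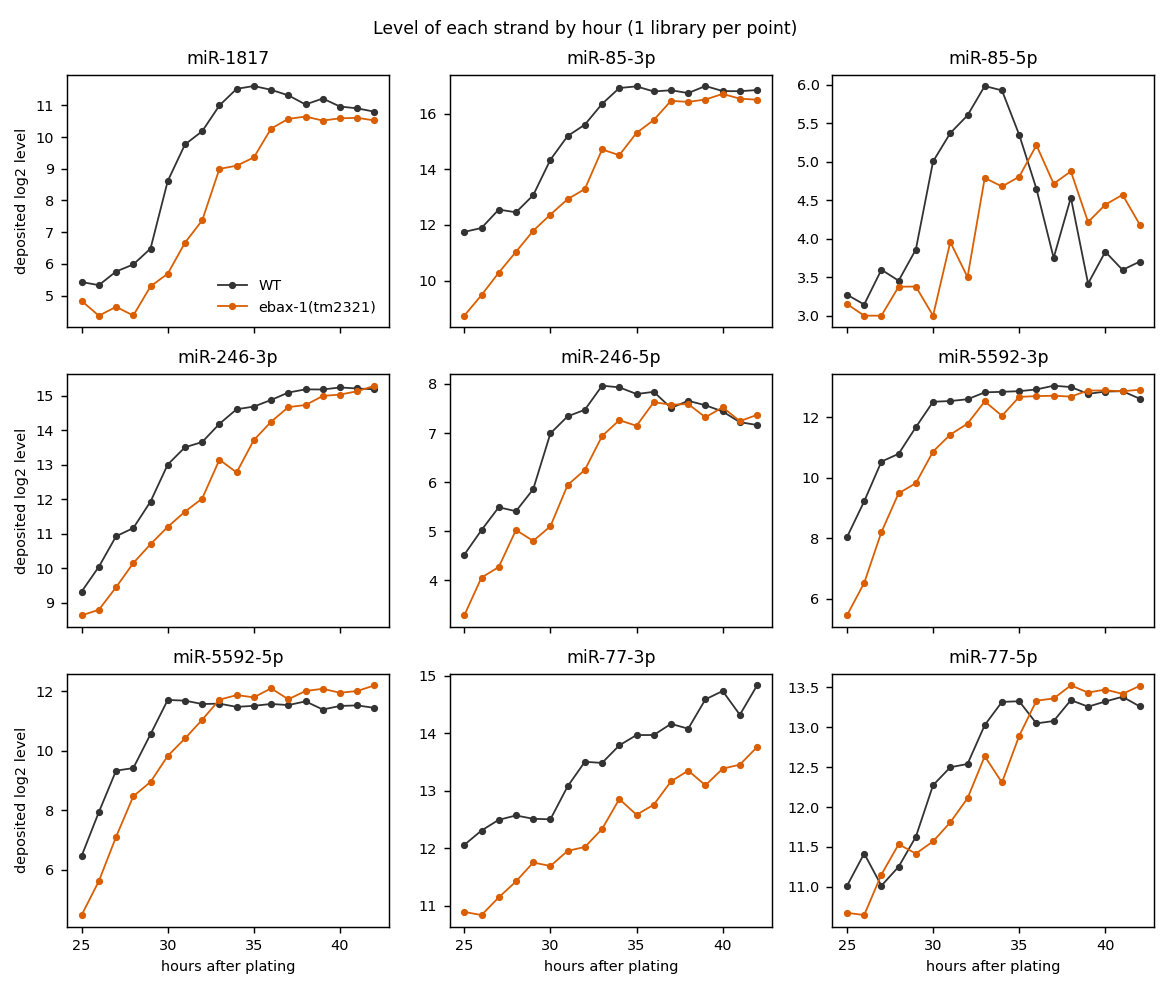
Deposited log2 level (y axis, a separate scale in each panel) against hours after plating (x axis) for the 9 strands, in WT (dark) and ebax-1(tm2321) (orange), with 1 library per point. Most strands of the mutant follow WT some hours later and come near its level by 42 h. miR-77-3p stays below WT at every hour, and miR-5592-5p ends above it, at 12.19 against 11.43. miR-85-5p rises and falls again.

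miR-85-3p was the most abundant member and rose 26.9-fold in WT and 135-fold in the mutant between 25 to 27 h and 40 to 42 h on the scale of the deposited levels. In WT its level was lowest at 11.75, had a median of 16.54 and reached 16.99 at 39 h, which corresponds to 2061 reads at 25 h and 145414 at 39 h. In the mutant the lowest level was 8.74, the median 14.61 and the highest 16.70 at 40 h. Between the mean of 25 to 27 h, called the base, and the mean of 40 to 42 h, called the late level, the rise was 4.75 on the log2 scale in WT and 7.07 in the mutant. The larger rise of the mutant came from its lower base of 9.50 ± 0.77 against 12.06 ± 0.43 (SD, n = 3), as the late levels of 16.58 and 16.82 were close. That base was sampled at an earlier stage in the mutant, which was about 3 h behind.

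At the same clock hours the early part of the miR-85-3p rise differed between the strains, but the mutant was then at an earlier stage. WT stayed between 11.75 and 12.55 from 25 to 28 h and then climbed at up to 0.84 ± 0.08 (SE) log2 units per hour over 28 to 32 h. The mutant climbed from the first library on, at 0.76 ± 0.01 per hour over 25 to 29 h, and no low plateau was sampled in it. By the 3 h delay, its libraries of 25 to 27 h precede the first of WT. At the mutant hours of 28 to 31 h, which match WT 25 to 28 h, its level went from 11.035 to 12.925. A change of the strain difference over the aligned hours was not called for this strand (edgeR's quasi-likelihood test, adjusted p = 0.189). Both strains were flat at the end, with slopes over 38 to 42 h of 0.00 ± 0.03 in WT and 0.02 ± 0.04 in the mutant.

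miR-1817, of which 1 strand is in the table, had the steepest climb of WT among the 9 strands. Its WT level ranged from 5.33 at 26 h to 11.61 at 35 h with a median of 10.85, and its mutant level from 4.36 to 10.65 at 38 h with a median of 9.05. The WT level went from 6.48 at 29 h to 8.61 at 30 h, or from 75 to 383 reads. The steepest slopes were 1.17 ± 0.16 per hour over 28 to 32 h in WT and 0.91 ± 0.11 over 30 to 34 h in the mutant. Unlike miR-85-3p, it passed a maximum in WT and then declined to 10.80 at 42 h, with an end slope of -0.08 ± 0.04, while the mutant ended flat at -0.02 ± 0.02. At these same clock hours the mutant was at an earlier stage, by about 3 h.

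miR-246-3p was already climbing in the first WT library. Its level went from 9.32 at 25 h to a highest value of 15.24 at 40 h in WT, with a median of 14.40, and from 8.63 to 15.30 at 42 h in the mutant, with a median of 12.96. The steepest slope was 0.70 ± 0.08 per hour in WT and 0.61 ± 0.02 in the mutant. WT had levelled off by the end, with a slope of 0.00 ± 0.01, but the mutant was still rising at 0.13 ± 0.02 per hour, so no plateau was reached there within the hours sampled.

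Both miR-5592 strands reached their mid-rise level earliest, in WT and in the mutant. In WT miR-5592-3p went from 8.03 at 25 h to 12.51 at 30 h and then stayed between 12.51 and 13.05, and in the mutant it went from 5.44 at 25 h to 12.53 at 33 h and ended at 12.91. miR-5592-5p moved alongside it, from 6.46 at 25 h to 11.70 at 30 h in WT and from 4.47 to 12.19 at 42 h in the mutant. Steepest slopes were 0.89 ± 0.11 and 0.97 ± 0.14 per hour in WT and 1.17 ± 0.13 and 1.18 ± 0.10 in the mutant, for 3p and 5p in turn. All 4 of these slopes came from 25 to 29 h, the first window that could be fitted, so no flat stretch before the rise was sampled in either strain.

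miR-77 was the shallowest of the hairpins. miR-77-3p rose by 2.34 in WT, from 12.06 at 25 h to 14.83 at 42 h with a median of 13.64, and by 2.57 in the mutant, from a lowest level of 10.84 to 13.76 at 42 h with a median of 12.46. Its slopes over 38 to 42 h were 0.12 ± 0.09 per hour in WT, within 2 SE of 0, and 0.12 ± 0.05 in the mutant, so no plateau was evident. miR-77-5p rose by 2.18 in WT and 2.65 in the mutant and was flat over 38 to 42 h in both, with slopes of 0.00 ± 0.02.

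The opposite strands of miR-85 and miR-246 rose and then fell. miR-85-5p was at 1 read in the WT 25 h library, climbed to 40 reads at 34 h and was back at 4 reads at 42 h. In the mutant it had 0 reads at 26, 27 and 30 h, at most 30 at 34 h, and 8 at 42 h. On the log2 level, which corrects for library size, the maxima of miR-85-5p were at 33 h in WT and 36 h in the mutant. miR-246-5p peaked at the same hours, at 7.96 in WT and 7.63 in the mutant, and had declined to 7.16 and 7.37 by 42 h. Both strands thus had their maximum 3 h later in the mutant, while their guides went on rising or stayed level.

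Set among all 241 strands tested, the WT rises of miR-1817, miR-246-3p and miR-85-3p ranked 1, 2 and 3, as their choice implies. miR-5592-5p and miR-5592-3p ranked 7 and 8, miR-77-3p, miR-246-5p and miR-77-5p ranked 18, 19 and 20, and miR-85-5p ranked 53. The median strand of all tested changed by -0.42. miR-39-5p with a rise of 4.29 was the next below miR-85-3p. By the steepest WT slope the ranks ran from 2 for miR-1817 to 56 for miR-77-3p, with 12 for miR-85-3p and 19 for miR-246-3p.

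How late the mutant was depended on the level at which it was read. At the mid-rise level, the mean of WT base and WT late level, the mutant crossed later than WT by 2.70 ± 0.36 h for miR-1817, 2.69 ± 0.38 h for miR-85-3p, 2.89 ± 0.43 h for miR-246-3p and 2.40 ± 0.49 h for miR-246-5p. The error is the scatter of single libraries around their neighbours divided by the steepest slope, combined over the strains. The delay was 2.30 ± 0.66 h for miR-77-5p, 2.01 ± 0.27 h for miR-5592-3p and 1.61 ± 0.27 h for miR-5592-5p. All of these were under the 3 h used for the alignment, and for both strands of miR-5592 by more than 3 times the error. For 4 of the strands this rested on the mutant 33 h library, without which the delays were 3.15 h for miR-1817, 3.78 h for miR-85-3p, 4.01 h for miR-246-3p and 3.32 h for miR-77-5p. Without the WT 25 h library, the delays of miR-85-3p and miR-246-3p were 3.81 and 4.22 h. Leaving out each library in turn moved the delay to 1.55 to 2.25 h for miR-5592-5p and to 1.96 to 2.42 h for miR-5592-3p, which stayed under 3 h. On levels scaled with TMM factors, which correct for differences in library composition, the 7 delays were 1.26 to 2.68 h.

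The gap in crossing hours was longer towards the top of the rise in miR-1817 and miR-85-3p. At the foot of the rise, 1 log2 unit above the WT base, the mutant of miR-1817 was late by 1.82 h, at the mid-rise level by 2.70 h, and within 1 log2 unit of the WT late level by 4.29 h. miR-85-3p gave 2.38, 2.69 and 3.78 h at the same 3 levels. From WT 31 h on, the deposited level of the mutant was below WT at every aligned hour in both strands. The differences were -0.97 to -0.42 for miR-1817 and -0.69 to -0.13 for miR-85-3p. A lower level and a longer delay near the top thus cannot be told apart. miR-77-5p gave 2.27, 2.30 and 3.81 h, and miR-246-5p gave 2.09, 2.40 and 2.67 h. In these 2 strands the small rise puts the 3 levels close together, at 12.15 to 12.32 and 6.01 to 6.27, so foot and top are hardly told apart. The 3.81 h of miR-77-5p rests on the mutant 34 h library, at 12.308 just under the top level of 12.323. The other 3 strands had no such order, with miR-246-3p at 2.08, 2.89 and 2.87 h, miR-5592-3p at 2.63, 2.01 and 2.84 h, and miR-5592-5p at 2.22, 1.61 and 2.18 h. The foot and top levels were added after the data had been seen.

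**Figure D2:**
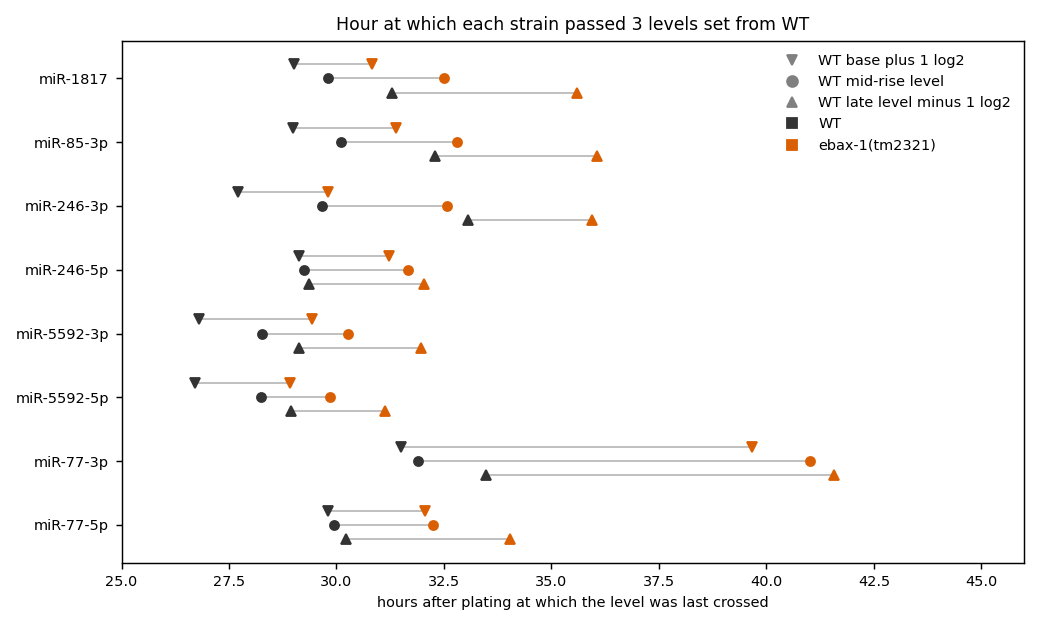
Hours after plating (x axis) at which WT (dark) and ebax-1(tm2321) (orange) last crossed 3 levels set from WT, for 8 strands (y axis), with a grey line joining both strains. Downward triangles mark the WT base plus 1 log2 unit, circles the mid-rise level and upward triangles the WT late level minus 1 log2 unit. In 7 strands the circles are 1.61 to 2.89 h apart, and in miR-77-3p 9.12 h, where the mutant also lay below WT at all aligned hours. miR-85-5p is not drawn because its rise had ended by 42 h.

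miR-77-3p did not follow this pattern. WT crossed its mid-rise level at 31.89 h and the mutant at 41.01 h, a gap of 9.12 ± 0.77 h that rests on the last library of the mutant, without which the level was not reached. A single shift of the whole mutant curve gave 6.0 h, the largest shift tried, against 1.75 to 3.25 h for the other 8 strands. On TMM-scaled levels the shift of miR-77-3p was 4.50 h. The mutant level of miR-77-3p was lower in 15 of 15 aligned hours. Neither the crossing of a WT level nor the shift can therefore tell a lower level from a later rise in this strand. Its rise from base to late level was 2.34 in WT and 2.57 in the mutant, with onsets above the own base at 31.49 and 31.06 h. miR-85-5p crossed its own low mid-rise level on the way down in WT, so its value of -7.24 h is no delay, and its single shift was 3.25 h. The onset of each strain above its own base differed by -1.71 to 1.25 h over 8 strands, but the base of the mutant was sampled at an earlier stage than that of WT, so these onsets do not start from the same point. Midpoints of a logistic curve could be fitted in both strains for 6 strands and differed by -1.17 ± 1.0 (SE) h for miR-85-3p to 2.23 ± 1.03 h for miR-246-3p.

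The late-rise miRNAs that the study names beside miR-85 gave delays that overlapped with those of the members and reached higher. A single shift was 2.25 h for miR-357-3p, 2.75 h for miR-358-3p, 3.50 h for miR-359, 4.50 h for miR-240-3p and 3.50 h for miR-786-3p, where miR-240 and miR-786 are made from 1 transcript and miR-786 acts in the rhythm of defecation. Their own rises in WT were 1.01, 1.35, 3.11, 1.64 and 1.67 in the same order. The opposite strands miR-357-5p, miR-358-5p, miR-240-5p and miR-786-5p had shifts of 2.25, 2.25, 3.25 and 3.00 h. In WT these changed by -0.95, 0.81, 0.32 and 1.37, so not all strands of the list rose over these hours. The members' shifts of 1.75 to 3.25 h, miR-77-3p aside, overlapped with these values, but miR-359, miR-240-3p and miR-786-3p lay above them.

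Averaged over the 15 aligned hours, 3 of the 9 strands were higher in ebax-1(tm2321), 1 was lower and 5 did not pass the threshold, an adjusted p of 0.01 by edgeR's quasi-likelihood test with Benjamini-Hochberg adjustment over the 241 strands. Among all strands tested, 24.1% were higher and 26.6% lower, so the count of members called was near that background. The p-values measure scatter of libraries around a smooth curve over time. Differences are log2 mutant minus WT ± SE, and the hours in which a strand was higher or lower refer to the deposited levels.

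miR-77-3p and miR-77-5p, made from 1 hairpin, were called in opposite directions. miR-77-3p was lower by -0.43 ± 0.07 (adjusted p = 2.41e-06) and lower in 15 of 15 hours, with mean CPM (TMM-scaled read counts relative to the library total) of 2355 in WT and 1650 in the mutant. miR-77-5p was higher by 0.48 ± 0.07 (adjusted p = 1.10e-06) and higher in 13 of 15 hours, with 1301 and 1745 CPM. Hour by hour the 3p difference ran from -0.92 at WT 32 h to -0.17 at WT 30 h. The direction of miR-77-3p and its call held under every other scaling, shift and tool tried, between -1.0 and -0.26, and in all 30 fits that left out a library. miR-77-5p held in 9 of 10 settings and gave -0.09 without any shift, where adjusted p was 0.404.

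miR-5592-5p had the largest mean difference of the 9, higher by 0.74 ± 0.12 (adjusted p = 5.04e-06) and higher in 15 of 15 hours, from 0.01 at WT 30 h to 2.0 at WT 25 h. Its mean CPM was 451 in WT and 685 in the mutant. miR-5592-3p was higher by 0.32 ± 0.11, with an adjusted p of 0.0139 that missed the threshold, and in 8 of 15 hours. This value sat at the edge, since the adjusted p ran from 0.00146 to 0.0158 when single libraries were left out and passed the threshold in 28 of those 30 fits.

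miR-246-3p was higher by 0.33 ± 0.09 (adjusted p = 0.0026) and in 12 of 15 hours, with 3562 CPM in WT and 4024 in the mutant. The call was lost with library totals as the scale, where the difference was 0.14 (adjusted p = 0.140), and with a shift of 2 h, where it was -0.01 (adjusted p = 0.919). It was also lost with limma on the deposited log2 levels. The 4 strands left were miR-1817 at -0.28 ± 0.15 (adjusted p = 0.113), miR-85-5p at -0.32 ± 0.23 (0.234), miR-85-3p at -0.05 ± 0.09 (0.675) and miR-246-5p at 0.03 ± 0.09 (0.765). The most abundant member, miR-85-3p, was thus within 1 SE of WT over the aligned course, although it was lower in 12 of 15 hours on the deposited levels, whose scale by library totals put the median of all strands at -0.23 and not at the -0.03 of the TMM scale. With a shift of 2 h, miR-1817 at -0.64 and miR-85-3p at -0.41 both passed the threshold as lower, so their lack of a call depends on the 3 h alignment. That of miR-1817 also depends on the scaling, as it was lower by -0.46 (adjusted p = 0.0074) with library totals as the scale.

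**Figure D3:**
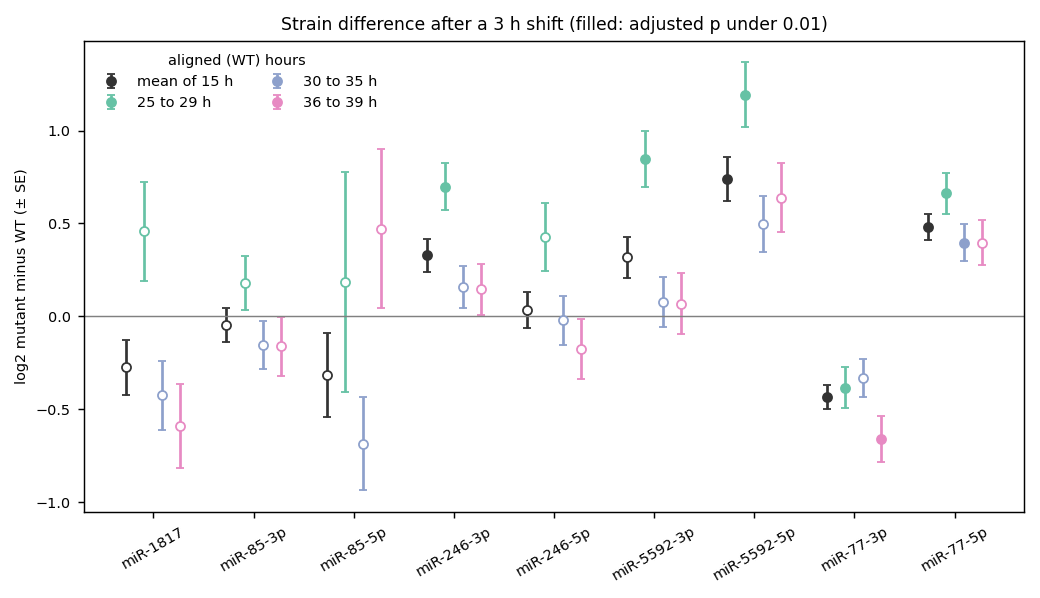
Log2 difference of ebax-1(tm2321) minus WT after the 3 h shift (y axis, ± SE) for the 9 strands (x axis), as the mean over 15 aligned hours (dark) and within aligned hours 25 to 29 (green), 30 to 35 (blue) and 36 to 39 (pink). Filled points passed an adjusted p of 0.01. miR-77-3p lies below 0 in every window and miR-77-5p above it, and the green points of miR-246-3p and both miR-5592 strands, at 0.70 to 1.19, lie above their later windows.

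The aligned hours were also split into 3 windows, and the strain difference of each was tested in 1 fit over the libraries of all 3. In hours 25 to 29, miR-5592-5p was higher in the mutant by 1.19 ± 0.17 (adjusted p = 2.62e-05), miR-5592-3p by 0.85 ± 0.15 (2.61e-04), miR-246-3p by 0.70 ± 0.12 (2.55e-04) and miR-77-5p by 0.66 ± 0.11 (1.14e-04). miR-77-3p was lower by -0.38 ± 0.11 (adjusted p = 0.0096). These were 4 strands higher and 1 lower of 9, where 15.4% of all strands were higher and 13.3% lower in this window. The window covers the steep part of the rise, so the alignment weighs heavily: with a shift of 2 h the values were 0.48 for miR-5592-5p, 0.20 for miR-5592-3p and 0.24 for miR-246-3p and none of these passed, while miR-77-5p at 0.53 still did. The call of miR-77-3p here held in 6 of 15 fits that each left out 1 aligned pair of libraries. This window also shares its WT libraries of 25 to 27 h with the rise for which the hairpins were picked.

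In aligned hours 30 to 35, miR-77-5p was the 1 strand called, higher by 0.40 ± 0.10 (adjusted p = 0.0038), beside 13.3% higher and 14.1% lower of all strands. miR-77-3p at -0.33 ± 0.10 and miR-5592-5p at 0.50 ± 0.15 missed the threshold (adjusted p = 0.0131 for both). In aligned hours 36 to 39, miR-77-3p was the 1 strand called, lower by -0.66 ± 0.12 (adjusted p = 4.03e-04), beside 10.8% higher and 8.71% lower of all strands. miR-5592-5p at 0.64 ± 0.18 (adjusted p = 0.0138), miR-77-5p at 0.40 ± 0.12 (0.0195) and miR-1817 at -0.59 ± 0.23 (0.0576) missed it. miR-1817 went from 0.46 ± 0.26 in the first window to -0.43 ± 0.19 and -0.59 ± 0.23 in the later ones.

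Whether a strain difference changed over the aligned hours was tested on its own. By edgeR's quasi-likelihood test, miR-5592-3p was the 1 member past the threshold (adjusted p = 0.0064), beside 7.47% of all 241 strands. The adjusted p was 0.0257 for miR-1817 and 0.0665 for miR-5592-5p, and 0.162 to 0.712 for the other 6 strands. The hourly differences of miR-5592-3p were 1.46 at WT 25 h and 0.60 at 26 h, and lay between -0.49 and 0.14 from 30 h on. The call was lost without the WT 25 h library (adjusted p = 0.219) or the mutant 28 h library (0.197), which make up the first aligned hour, and in 15 of 30 such fits in all, and with a shift of 2 h (0.746).

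The scaling of a library cancels in the ratio of 2 strands with many reads, but not where the added 8 weighs against few reads, as in miR-85-5p and the early miR-246-5p. The ratio of miR-77 and that of miR-5592 differed between the strains. The log2 ratio of guide to passenger was lower in ebax-1(tm2321) by -0.92 ± 0.10 for miR-77 (limma, adjusted p = 5.82e-09), with a mean ratio of 0.87 in WT and -0.05 in the mutant. For miR-5592 it was lower by -0.44 ± 0.07 (adjusted p = 6.30e-06), from 1.26 to 0.82. Of 86 hairpins with both strands kept, 22.1% had a higher and 14% a lower ratio in the mutant. miR-246 had a difference of 0.27 ± 0.09 (adjusted p = 0.0130) and miR-85 one of 0.06 ± 0.14 (0.768), neither past the threshold.

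In WT, miR-77-3p exceeded miR-77-5p in all 18 libraries, by 0.23 at the least (30 h), 0.93 at the median and 1.57 at the most (42 h) on the deposited log2 levels. In the mutant the 3p strand exceeded the 5p strand in 8 of 18 libraries, with a lowest difference of -0.58 at 36 h, a median of -0.05 and a highest of 0.55 at 34 h. The ranges of the strains overlapped between 0.23 and 0.55, but at aligned hours the mutant was lower in 15 of 15, with a median gap of -1.03. Of the pooled miR-77 reads at 40 to 42 h, 71.5% were 3p in WT and 51.0% in the mutant, and at 25 to 27 h 68.6% and 52.2%. The 3p strand counts as the guide of miR-77 by its mean over all libraries, and in the mutant it was not the more abundant strand in most hours.

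For miR-5592 the 3p strand led in all 18 libraries of each strain. The lead ran from 0.81 at 30 h over a median of 1.35 to 1.57 at 25 h in WT, and from 0.19 at 34 h over a median of 0.88 to 1.10 at 27 h in the mutant. The mutant was lower in 14 of 15 aligned hours. Since reads of either hairpin fall into the same rows, the ratio is that of both hairpins together.

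**Figure D4:**
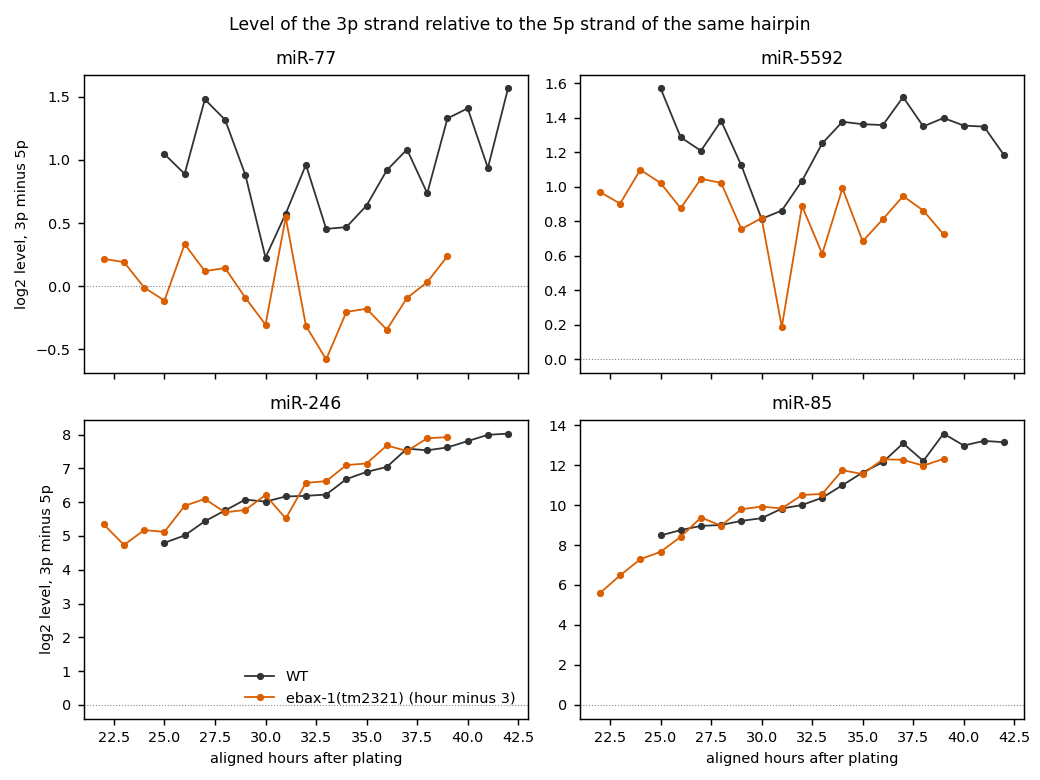
Deposited log2 level of the 3p strand minus that of the 5p strand (y axis, a separate scale in each panel) against aligned hours (x axis, mutant hours minus 3) for the 4 hairpins with both strands in the table, in WT (dark) and ebax-1(tm2321) (orange). The strains are apart in miR-77 and miR-5592 and intermingle in miR-246 and miR-85, where the ratio climbs by several log2 units over time in both strains.

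On the deposited levels the ratios of miR-246 and miR-85 rose over time in both strains. The miR-246 difference went from 5.08 ± 0.33 at 25 to 27 h to 7.94 ± 0.12 at 40 to 42 h in WT (SD, n = 3), and from 5.08 ± 0.31 to 7.78 ± 0.23 in the mutant. For miR-85 it went from 8.73 ± 0.24 to 13.11 ± 0.12 in WT and from 6.45 ± 0.85 to 12.18 ± 0.19 in the mutant. In both strains the few reads of miR-85-5p make these values depend on the added 8. The mutant had 1, 0 and 0 reads of it at 25, 26 and 27 h. Of the pooled miR-85 reads, 99.952% were 3p at 25 to 27 h and 99.996% at 40 to 42 h in WT. In the mutant these shares were 99.963% and 99.986%. miR-77 and miR-5592 had like ratios at both ends of the course, with WT values of 1.14 ± 0.31 and 1.30 ± 0.33 for miR-77 and of 1.36 ± 0.19 and 1.29 ± 0.10 for miR-5592 in the same windows. Between these windows the WT ratios dipped, to 0.23 for miR-77 and 0.81 for miR-5592 at 30 h. In WT the ratio of miR-246 climbed both before the passenger maximum, from 5.02 at 26 h to 6.23 at 33 h, and after it, to 8.03 at 42 h. That of miR-85 went from 8.75 to 10.36 and 13.14 at the same hours. Its 5p strand had 1, 37 and 4 reads there, beside 4479, 55823 and 93815 reads of 3p. The step of miR-85 before the maximum thus depends on the added 8, and the reads themselves show no climb from 26 to 33 h.

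The mutant 34 h library, the deepest of the series, stood apart. Its strands departed from the mean of the neighbouring hours by a median of 0.26 over all strands tested, against 0.09 to 0.19 in the other 31 libraries with neighbours on both sides. Against the mean of its neighbours, miR-246-3p was 0.66 below there, miR-5592-3p 0.55 and miR-85-3p 0.50 below, and miR-77-3p 0.40 above. In the mutant 33 h library several members departed further, the other way, with miR-85-3p 0.81 above, miR-1817 0.76, miR-246-3p 0.75 and miR-5592-3p 0.61 above, where the median over all strands was 0.19. Since 34 h is a neighbour of 33 h, these departures are not independent. Without the 34 h library, the miR-77 ratio difference was -0.98 and that of miR-5592 -0.41, the mean difference of miR-77-3p was -0.42 and that of miR-246-3p 0.43, and all these calls held. The ratio of miR-246 then passed the threshold at 0.33 (adjusted p = 3.54e-04), as did miR-5592-3p in the mean difference at 0.41 (0.00155) and miR-77-3p in aligned hours 30 to 35 at -0.42 (0.00331). Without the 33 h library, miR-5592-3p passed in the mean difference at 0.36 (adjusted p = 0.00625) and no longer in the test over time (0.0137), and miR-5592-5p passed in aligned hours 30 to 35 at 0.64 (0.0027) and 36 to 39 at 0.66 (0.00572), as did miR-77-3p in 30 to 35 at -0.32 (0.00455).

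The strands whose course was most like that of the members came from a few hairpins. Pearson's r was computed over all 36 libraries after each strain was centred on its mean, and is a description, since libraries share time, depth and culture. miR-786-3p was the nearest strand outside the 5 hairpins for miR-85-3p (r = 0.977), miR-246-5p (0.972), miR-246-3p (0.960), miR-77-5p (0.956) and miR-1817 (0.951). miR-240-3p came next for miR-85-3p, miR-246-3p, miR-246-5p and miR-1817, at 0.940 to 0.965. miR-59-3p was the nearest for miR-5592-3p (0.972) and miR-5592-5p (0.970), followed by miR-358-3p at 0.955 and 0.962. miR-359 was the nearest for miR-77-3p (0.948), before miR-78 (0.928), and miR-240-5p the nearest for miR-85-5p (0.884), before let-7-5p (0.792).

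Within the 9 strands, miR-5592-3p and miR-5592-5p were nearly the same course, miR-85-3p and miR-246-3p had r = 0.99, and miR-77-3p and miR-77-5p had 0.94. miR-85-5p was the least like the rest, at 0.42 to 0.76. The correlation does not use the size of the rise, which was smaller in some neighbours and not in others. In WT miR-786-3p rose by 1.67 and miR-59-3p by 1.34, against 4.75 for miR-85-3p and 3.52 for miR-5592-3p, but miR-359 rose by 3.11 against 2.34 for miR-77-3p. In the mutant miR-786-3p rose by 3.00 and miR-59-3p by 3.52.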

How the data were processed

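Adapters were removed by the authors with QuasR and reads were aligned with Bowtie to ce10, reads that match several positions being retained. Reads that started at or close to the first base of a miRBase mature strand were counted for that strand. The sources used here name no versions of these tools. Integer read counts make up the raw table deposited by the authors. The normalized table holds the authors' log2 values, for which each count was scaled to the mean library total, 8 was added and log2 was taken, and repeating this gave the deposited values within 5e-04. Reads carried no molecular identifiers, and strands that are nearly identical may have reads in common. Mature sequences and the ebax-1 gene were not analysed here. Coordinates are those of the WBcel235 annotation and not of ce10.

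Counts of 437 strands in 36 libraries were filtered (filterByExpr by strain, minimum count 10), scaled with TMM factors and tested with edgeR 4.0.16 quasi-likelihood F-tests in R 4.3.3, with a cubic B-spline of 6 components over aligned time, or the aligned hour as a factor for windows, and an adjusted p of 0.01 as the threshold. Strand ratios (pseudocount 8) were tested with limma 3.58.1. Levels, slopes and delays were computed from the deposited log2 values without a test, with Python 3.11.15. Alternatives were other scalings, no filter, limma on the log2 values, DESeq2 1.42.0, 4 spline components, shifts of 0, 2 and 4 h and leaving out each library. The fits were tested on simulated data. Members, lists and tests were chosen with earlier results of these data known. Named were all strands of the 5 hairpins, the 3 strands most correlated with each, the late-rise miRNAs the study names beside miR-85, and the reference miRNAs.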

Additional observations from a re-analysis of the deposited data

Results flagged for a closer look

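One result stood out by a test of the difference between strains over time. For miR-5592-3p the strain difference changed over the 15 aligned hours, with an adjusted p of 0.0064 by edgeR's quasi-likelihood test and a mean difference of 0.32 ± 0.11. The excess of the mutant lay at the first aligned hours, 1.46 at WT 25 h, 0.60 at 26 h and 0.33 at 27 h, and from 30 h on the difference lay between -0.49 and 0.14. These first hours are the steepest part of its rise, at 0.89 ± 0.11 log2 units per hour in WT and 1.17 ± 0.13 in the mutant, and its own best shift was 2.25 h and not 3 h. Whether the 3 h alignment sets this result was not tested beyond the other shifts, which gave an adjusted p of 5.57e-07 at 0 h, 0.746 at 2 h and 6.29e-05 at 4 h. Without the WT 25 h library, adjusted p was 0.219 by the same test. That library belongs to the base of the rise for which the hairpins were picked.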

How the results depend on the processing

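Depth limited miR-85-5p most, at 0 to 40 reads per library, and the early levels of miR-246-5p, miR-1817, miR-5592-5p and miR-5592-3p, whose lowest counts were 2, 16, 16 and 40 and whose rises the added 8 makes smaller. Leaving out a library also moved the TMM reference, so that the median of all strands lay between -0.03 and 0.03. The mean differences passed the threshold in 3 to 6 strands under every setting, against 4 in the result reported. No paired analysis was possible because the labels give no replicate numbers and each hour has 1 library per strain. With the aligned hour as a factor, which blocks on time and not on replicate, the mean differences passed in 4 strands, with miR-77-3p at -0.44.

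The shift mattered most. Without a shift, called differences turned: -0.094 for miR-77-5p, -0.95 for miR-246-3p and -0.51 for miR-5592-5p in the mean, -0.11 for miR-77-5p, -1.08 for miR-246-3p, -1.84 for miR-5592-5p and -2.13 for miR-5592-3p in aligned hours 25 to 29, and -0.40 for miR-77-5p in 30 to 35. With a shift of 2 h the mean of miR-246-3p was -0.011. The strain-by-time count, 1 as reported, was 0 with no filter and with a 2 h shift, 2 with a spline of 4 components, 3 with DESeq2, 5 with a 4 h shift and 7 with none, and 0 to 1 with single libraries left out. In 25 to 29 h a 2 h shift left 2 strands called of 5. In 30 to 35 h the count of 1 became 2 with DESeq2 size factors, no filter, limma or DESeq2, 3 with library totals or a 4 h shift, 4 with a 2 h shift and 6 with none, and ran from 0 to 3 with aligned pairs left out. In 36 to 39 h it became 3 with no filter or a 2 h shift, 2 with DESeq2 and 0 with a 4 h shift, and ran from 1 to 2 with pairs left out. A 4 h shift gave 4 hairpins with a called strand ratio in place of 2, adding miR-246 and miR-85. The causes were not tested.

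The median mid-rise value of the 9 strands, which takes in the -7.24 h of miR-85-5p, was 2.40 h. It was 1.83 h on TMM-scaled levels, 3.33 h over the 8 strands with a crossing at the WT late level minus 1 log2 unit, and 2.15 to 3.15 h with single libraries left out. The median rise in WT, 3.52, was 4.12 with windows of 2 h, and that of the mutant, 5.96, was 6.43 on TMM-scaled levels.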
